A study of Mus musculus with 72 samples.

Results

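The probes ILMN_2634083 and ILMN_2768154 are 2 of the 45281 probes measured in this mouse sepsis study. They were chosen by their rise from sham to septic mice in earlier comparisons of these arrays, the former by its liver values and the latter by its lung and heart values. The platform annotation names the former Cdkn1a and the latter Saa1. In RefSeq's GRCm38.p6 annotation Cdkn1a lies at chr17:29090979-29100722 and Saa1 at chr7:46740497-46743181. Female C57Bl/6J mice had a sham operation with saline, or cecal ligation and perforation (CLP), in which the tied and punctured cecum leaks gut bacteria into the abdomen. CLP mice received either saline or 250000 mesenchymal stem cells (MSC) from male mice, at passages 8 to 11 in 100 µL, infused 6 h after surgery, and organs were taken at 28 h. The same 15 mice, 5 per arm, gave a liver, a lung, a kidney and a heart each, while 4 spleens per arm carry labels of their own. The study's design text speaks of 4 animals per group, where the labels of these 4 organs number 5.

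Cdkn1a encodes p21, a protein that binds cyclin-dependent kinases and holds cells before DNA replication. The tumour suppressor p53 is its best known activator, and stress signals that do not need p53 also switch it on. Saa1 encodes serum amyloid A1, an apolipoprotein of high-density lipoprotein that hepatocytes secrete in large amounts in the acute phase response, under interleukin 6, interleukin 1 and tumour necrosis factor. Saa2 is its near copy next to it in the genome, Saa3 is made by many cell types outside the liver, and Saa4 is the constitutive member of the family.

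The sequences before the annotated starts are shown because the values below concern how much RNA each gene gave. Each window covers the 250 bases upstream of a RefSeq start on GRCm38.p6, 5′ to 3′ on the gene's own strand, and capitals mark motif matches. Cdkn1a has 2 such starts on the plus strand, with windows at chr17:29090729-29090978 and chr17:29093519-29093768. The Saa1 window is chr7:46742981-46743230 on the minus strand, before a start that lies inside the gene's annotated span, and the Saa2 window, printed to show how alike the pair is, is chr7:46751583-46751832 on the plus strand.
Cdkn1a upstream start: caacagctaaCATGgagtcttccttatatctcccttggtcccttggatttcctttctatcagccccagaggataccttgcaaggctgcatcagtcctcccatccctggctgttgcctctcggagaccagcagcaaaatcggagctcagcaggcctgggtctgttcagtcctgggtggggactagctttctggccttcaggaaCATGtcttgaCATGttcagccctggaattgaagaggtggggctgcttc
Cdkn1a downstream start: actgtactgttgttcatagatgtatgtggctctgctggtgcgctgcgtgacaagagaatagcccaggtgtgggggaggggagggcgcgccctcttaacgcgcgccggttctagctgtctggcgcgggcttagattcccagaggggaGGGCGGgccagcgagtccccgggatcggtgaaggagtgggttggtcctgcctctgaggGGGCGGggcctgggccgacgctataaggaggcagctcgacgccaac
Saa1: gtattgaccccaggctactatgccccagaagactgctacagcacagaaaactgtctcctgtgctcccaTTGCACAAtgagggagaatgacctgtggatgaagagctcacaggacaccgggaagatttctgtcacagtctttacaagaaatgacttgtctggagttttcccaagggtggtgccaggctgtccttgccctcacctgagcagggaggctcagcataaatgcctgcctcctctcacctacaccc
Saa2: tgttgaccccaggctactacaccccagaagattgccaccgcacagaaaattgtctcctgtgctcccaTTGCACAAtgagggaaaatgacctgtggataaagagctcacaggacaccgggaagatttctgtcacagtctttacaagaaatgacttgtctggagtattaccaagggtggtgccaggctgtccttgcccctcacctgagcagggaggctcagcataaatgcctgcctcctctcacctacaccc
The window before the upstream Cdkn1a start holds CATG, core letters of p53 binding sites, at -240 to -237, -48 to -45 and -38 to -35. Among 32841 such windows of all genes 54.0% hold it. The window before the downstream Cdkn1a start holds the Sp1 motif GGGCGG at -104 to -99 and at -46 to -41, which 32.7% of windows hold. The Saa1 window holds TTGCNNAA, a motif of the C/EBP factors that act in hepatocytes, at -182 to -175, and 9.57% of windows hold it. The Saa2 window holds the same letters at -183 to -176, and the Saa1 and Saa2 windows are 94.8% identical (238 of 251 aligned positions). Both strands were searched, also for TATAAA (12.4% of windows) and the STAT motif TTCNNNGAA (7.02%), and these letters are not in the 4 windows. The motif matches do not overlap one another, and a match is a description of the letters.

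Levels are the deposited log2 intensities of a probe, so a difference of 1 is a doubling, and levels of different probes are not comparable. A value of 6 was taken as the floor below which a probe was called dim. The values look quantile normalized within the 12 spleen arrays and within the 60 others, so spleen levels stand apart from the rest. A probe counted as changed at an adjusted p below 0.05 in limma, over all probes tested in the organ. Organ markers stood highest in the labelled organ at 6 of 6 hepatocyte, 5 of 5 kidney tubule, 5 of 5 lung epithelium and 4 of 4 cardiomyocyte genes. The second deposited table places 2 of the 12 spleen arrays in other arms than the first: array D2, of the MSC arm by its column name, is listed there as a sham spleen, and array E2, a sham spleen by its column name, as an MSC spleen. The spleen results of the Cdkn1a and Saa1 probes are therefore given with the column names and with the other placement. All other spleen values follow the column names, and with the other placement limma called 0 of 11048 spleen probes in any comparison of arms (1491 had an unadjusted p below 0.05 for CLP minus sham). In these bulk samples fewer cells of a type and less RNA per cell cannot be told apart, and the p-values measure the spread between arrays.

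Cdkn1a RNA was higher in septic than in sham mice in liver, kidney, heart and lung, and the CLP and sham arrays did not overlap in these organs. In the spleen the same held by the column names, whereas by the other placement the arms overlapped and the difference missed the threshold (adjusted p 0.37 in limma). The rise was 5.65 log2 in the liver (at least 5.13 with dim sham arrays at the floor), and kidneys, hearts and lungs rose by 4.33, 2.90 and 2.53. In sham livers the Cdkn1a probe read 4.82 in mouse 77S, 5.23 in 21S, 5.38 in 76S, 6.05 in 78S and 6.59 in 22S. In CLP livers it read 9.79 in mouse 107C, 11.49 in 34C, 11.57 in 24C, 11.71 in 35C and 11.76 in 37C. The lowest septic liver thus stood more than 3 log2 above the highest sham liver. With sham arrays under the floor set to it, CLP livers were at least 35.1-fold higher than sham livers. This rise chose the probe and is given without a test, in an organ where 23.8% of 18014 probes were called higher after CLP and 11.7% were higher without overlap.

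In sham kidneys Cdkn1a stood at 6.51 in 76S, 6.66 in 21S, 6.74 in 77S, 6.89 in 22S and 7.40 in 78S. In CLP kidneys it stood at 8.22 in 107C, 11.26 in 34C, 11.65 in 24C, 12.14 in 37C and 12.59 in 35C. Mouse 107C lay far below the other 4 septic kidneys yet above every sham kidney. The difference was 4.33 (SE 0.62), a 20.1-fold rise with an adjusted p of 0.000682 in limma, against 19.9% of kidney probes called higher and 7.36% higher without overlap. The kidneys, hearts and lungs came from the mice whose livers chose the probe, so their tests are not independent of that choice.

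Sham hearts read 7.90 in 76S, 8.15 in 21S, 8.40 in 77S, 8.53 in 78S and 9.43 in 22S for Cdkn1a. CLP hearts read 10.32 in 107C, 11.35 in 24C, 11.46 in 34C, 11.54 in 37C and 12.22 in 35C. All septic hearts lay above all sham hearts. The rise was 7.45-fold (2.90 log2, SE 0.38, adjusted p 0.000264 in limma), in an organ where 8.53% of probes were called higher and 4.33% were higher without overlap. Sham lungs already held the highest Cdkn1a level of the 4 organs, with 9.05 in 76S, 9.41 in 21S, 9.61 in 77S, 10.08 in 78S and 10.23 in 22S. CLP lungs read 11.49 in 107C, 12.07 in 34C, 12.12 in 24C, 12.48 in 37C and 12.85 in 35C. The lung change was 5.76-fold (2.53 log2, SE 0.31, adjusted p 4.49e-05 in limma), with 15.9% of lung probes called higher and 8.28% higher without overlap.

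The organ means spanned a wider range in sham than in CLP mice. Mean Cdkn1a levels in sham mice (mean ± SD, n = 5) ran from 9.68 ± 0.48 (lung) through 8.48 ± 0.58 (heart) and 6.84 ± 0.34 (kidney) to 5.61 ± 0.70 (liver), a range of 4.06 log2. Lung and heart overlapped in this order, as did kidney and liver, while every heart lay above every kidney. In CLP mice the means were 12.20 ± 0.51 (lung), 11.38 ± 0.68 (heart), 11.26 ± 0.83 (liver) and 11.17 ± 1.73 (kidney), a range of 1.03 log2 in which neighbours overlapped. The narrowing from sham to CLP mice was not tested, since the liver rise chose the probe. With the 3 dim sham livers at the floor the sham liver mean was 6.13, so the sham range is smaller on that count.

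**Figure D1:**
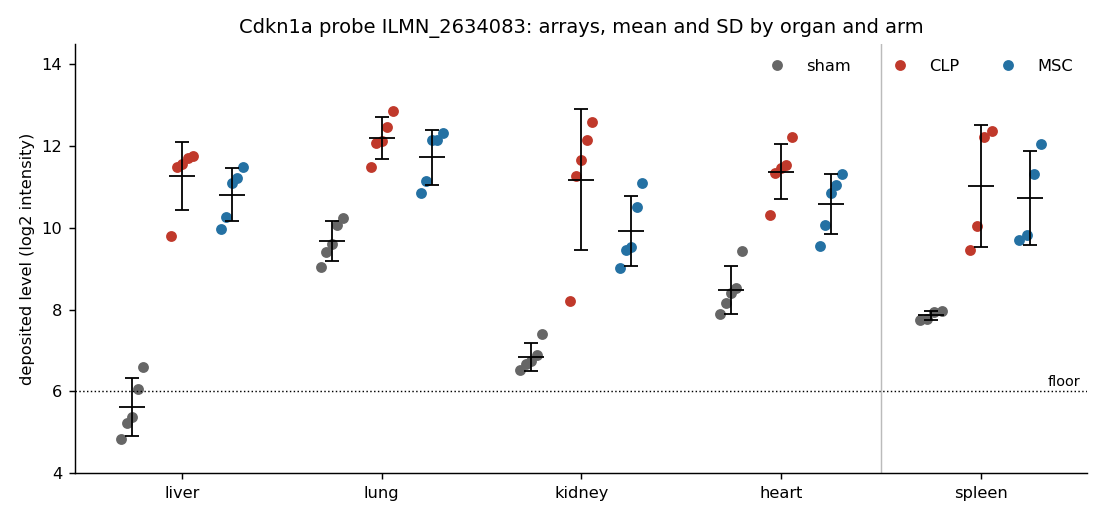
Deposited log2 intensity of the Cdkn1a probe (vertical axis) in each array, by organ and arm. Points are arrays, bars the mean with its SD, and the dotted line the floor of 6; septic arrays with or without cells lie above the sham arrays in liver, lung, kidney and heart. The spleen, right of the line, was normalized apart and is drawn by the column names; by the other placement sham spleens reach 11.32 and overlap the CLP spleens, which start at 9.46.

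In the spleen, with arms as the column names give them, Cdkn1a rose after CLP by 3.17 log2 (SE 0.67, 8.97-fold, adjusted p 0.0142 in limma), where 7.22% of probes were called higher and 11.8% were higher without overlap. The sham spleens read 7.96 in E, 7.77 in F, 7.74 in E2 and 7.95 in F2. The CLP spleens read 12.22 in A, 9.46 in B, 12.36 in A2 and 10.05 in B2. The sham spleens were close together, and the septic ones fell into a higher and a lower pair. The rise rests on which table is followed: with the other placement the sham spleens ran from 7.77 to 11.32 (8.75 ± 1.71, n = 4), the change was 2.27 and the adjusted p 0.37. Without the arrays D2 and E2 the change was 3.13 and the adjusted p 0.0521.

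Septic mice given MSC had Cdkn1a levels between those of sham and CLP mice on average, much nearer to CLP. MSC livers read 9.97 in 100M, 10.27 in 61M, 11.10 in 101M, 11.21 in 44M and 11.48 in 16M. MSC kidneys read 9.02 in 100M, 9.46 in 61M, 9.53 in 101M, 10.50 in 44M and 11.10 in 16M. In each of the 4 organs of these mice and in the spleen the MSC arrays overlapped the CLP arrays. Hearts read 9.56 in 61M, 10.08 in 100M, 10.85 in 101M, 11.06 in 16M and 11.32 in 44M. Lungs read 10.86 in 61M, 11.14 in 100M, 12.14 in 16M, 12.14 in 101M and 12.33 in 44M.

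The MSC minus CLP difference in Cdkn1a missed the threshold in every organ. The CLP livers of this comparison helped to choose the probe, and the kidneys, hearts and lungs came from the same mice. These tests are therefore not independent of that choice. For the kidney the difference was -1.25 (95% interval -2.57 to 0.07, adjusted p 0.204 in limma) and for the heart -0.80 (-1.61 to -0.0, adjusted p 0.286). It was -0.48 for the lung (-1.13 to 0.17, adjusted p 0.333) and -0.46 for the liver (-1.32 to 0.40, adjusted p 0.480). For comparison, 6.08% of liver probes, 0.00567% of kidney probes and 0.0113% of heart probes were called in either direction. In the lung limma called 0 of 17520 probes, while 4574 had an unadjusted p below 0.05. These numbers rest on single arrays: leaving out mouse 107C raised the calls from 1095 to 5437 for the liver, 1 to 6065 for the kidney, 2 to 1355 for the heart and 0 to 4249 for the lung. Leaving out 1 of 12 other liver arrays gave 0 calls there, and 34C or 16M left 42 and 1. Exact 2-sided permutation tests of the 5 MSC against the 5 CLP mice gave p = 0.19 for the kidney, 0.119 for the heart, 0.23 for the lung and 0.278 for the liver. Each adjusted p was 0.611 over the 11 such tests made on both genes, and 0.0079 is the smallest p that 5 against 5 allows. An F-test of whether the difference varied between organs gave an adjusted p of 0.357, with 5.17% of probes called.

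Mouse 107C had the lowest Cdkn1a level of the CLP arm in 4 of 4 organs, and 35C the highest in 3 of them. Averaged over the 4 organs of each mouse, Cdkn1a was 7.65 ± 0.47 in sham, 11.50 ± 0.92 in CLP and 10.76 ± 0.68 in MSC mice (n = 5 each). CLP means per mouse were 9.95 in 107C, 11.57 in 34C, 11.67 in 24C, 11.98 in 37C and 12.34 in 35C. MSC means per mouse were 10.04 in 61M, 10.05 in 100M, 10.91 in 101M, 11.34 in 44M and 11.45 in 16M. The 4 CLP mice other than 107C lay above all 5 MSC mice. These means hold the livers, whose CLP arrays helped to choose the probe, so the tests below are not independent of that choice. The difference of -0.75 (SE 0.39) had an adjusted p of 0.174 in limma, and 12.1% of probes were called. Fitted in limma on all 60 arrays with mice as blocks, the same difference had an adjusted p of 0.0317, and 3735 of 13707 probes were called. That fit took 1 correlation within a mouse, 0.201, for all probes. Where the organs of a mouse move together more than that, its p-value is too small. The exact permutation test over the 5 MSC and 5 CLP mice gave p = 0.159 (adjusted p 0.611). Without mouse 107C the difference over the 4 organs was -1.13 (adjusted p 0.00642 in limma), where 43.1% of all probes were then called. In the kidney alone it was -1.99 (adjusted p 0.00122), where 33.6% were. Calls were thus gained across the arrays and not for Cdkn1a in particular.

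Against sham mice, MSC mice had a higher Cdkn1a level in liver, kidney, heart and lung. This comparison shares its sham arrays with CLP minus sham, and in the liver those arrays helped to choose the probe. The MSC minus sham difference was 5.19 in the liver (at least 25.6-fold, given without a test) and 3.08 in the kidney (8.46-fold, adjusted p 0.00828 in limma). It was 2.09 in the heart (4.26-fold, adjusted p 0.00642) and 2.05 in the lung (4.14-fold, adjusted p 0.000394). Shares of all probes called higher were 11.5% in liver, 3.35% in kidney, 2.02% in heart and 4.49% in lung. MSC spleens read 9.71 in C, 9.83 in D, 12.06 in C2 and 11.32 in D2, so that all lay above the sham spleens by the column names, as 11.5% of probes did. Their rise of 2.88 over sham (adjusted p 0.0265, 3.85% of probes called higher) was 1.09 with the other placement (adjusted p 0.995) and 2.64 without D2 and E2 (adjusted p 0.152). MSC and CLP spleens differed by -0.29 (-1.76 to 1.18, adjusted p 1), or by -1.19 with the other placement (adjusted p 0.82), where by the column names limma called 0 of 11048 probes and 428 had an unadjusted p below 0.05.

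The array carries 2 further Cdkn1a probes, and both followed the former probe closely. Over the 60 arrays, each organ centred on its own mean, ILMN_2846776 correlated with it at r = 0.987 and ILMN_2846775 at r = 0.978, and these arrays share 15 mice. At ILMN_2846776 all 5 sham livers and 3 of 5 sham kidneys were under the floor, so CLP minus sham was at least 3.41 for liver and at least 3.57 for kidney, and it was 2.83 for heart and 2.45 for lung. At ILMN_2846775 it was 3.71, 3.45, 2.59 and 2.28 in the same order. All 3 probes were higher in CLP mice in these 4 organs, by sizes that differed most in the liver. In the spleen ILMN_2846775 rose by 2.37 by the column names (adjusted p 0.0394 in limma) and stood at 1.65 with the other placement (adjusted p 0.404).

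**Figure D2:**
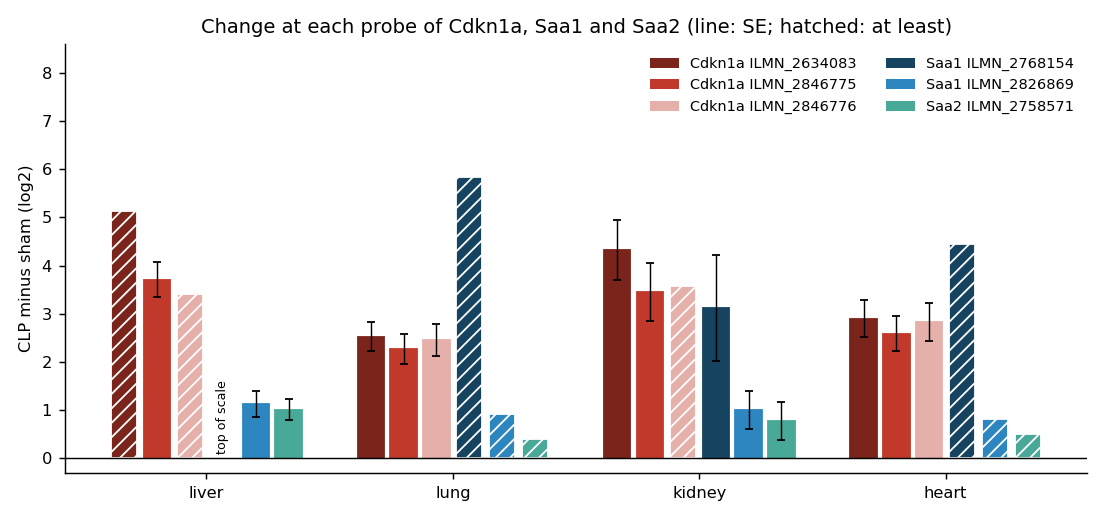
Difference of the CLP and sham means (log2, vertical axis) at each probe of Cdkn1a, Saa1 and Saa2 in 4 organs, with lines for the SE; hatched bars are lower bounds, with dim sham arrays at the floor, and carry no SE. In the liver the Cdkn1a probes run from at least 3.41 to at least 5.13, the Saa1 probes differ from each other in lung, kidney and heart, and ILMN_2768154 in the liver is left out because it stands at the top of the scale.

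Beyond its own probes, the patterns most like Cdkn1a over those 60 arrays, among 13706 other probes, were those of Cd14, the lipopolysaccharide co-receptor (r = 0.936), Pdk4, a kinase that turns off pyruvate dehydrogenase in fasting (r = 0.923), and Col4a1, a basement membrane collagen (r = 0.914). Cd14 stood at 7.95 ± 0.35 in sham and 14.72 ± 1.13 in CLP livers, and its changes were 6.77 for liver, 4.22 for kidney, 2.24 for heart and 1.77 for lung. Pdk4 changed by 4.21, 4.04, 2.25 and 2.64 in the same organs, and Col4a1 by 2.55, 1.37, 1.39 and 0.75. The order from liver and kidney to heart and lung was the same apart from the lung and heart of Pdk4 and the kidney and heart of Col4a1. The changes in each organ enter the correlation that picked these probes. A similar order is therefore no separate result. In the 12 spleens Col4a1 correlated with Cdkn1a at 0.97 and Pdk4 at 0.77. The probe of the clock output gene Dbp, chosen here after its values were seen, ran most opposite (r = -0.90), with changes of -4.11 in the liver and -2.05 in the heart.

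Among listed p53 targets the share called higher was above that of all probes in the kidney and near it in the other organs. Of 14 such genes tested in the liver besides Cdkn1a, 4 rose and 1 fell, with a median change of 0.14 against 0.06 over all probes. Kidneys showed 8 of 15 higher and 2 lower (median 0.46), lungs 2 of 14 higher (0.01), hearts 1 of 14 (0.20) and spleens 1 of 8 (0.45). Over all probes 23.8%, 19.9%, 15.9%, 8.53% and 7.22% were called higher in the same organs. Mdm2, whose protein marks p53 for destruction, rose by 0.67 in the liver (SE 0.18, adjusted p 0.00553 in limma) and by 0.65 in the kidney (adjusted p 0.0112). Gadd45a, a DNA damage response gene, rose by 2.17 in the kidney (adjusted p 0.00173) and stood at 0.02 in the liver (adjusted p 0.971).

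Among the other kinase inhibitors, cyclins and kinases of the cell cycle, 4 of 11 tested fell and 1 rose in the liver, 3 and 2 of 11 in the lung, 3 and 2 of 12 in the kidney, 2 and 0 of 11 in the heart, and 1 and 0 of 10 in the spleen. Over all probes 20.5% were called lower and 23.8% higher in livers, 16.9% and 15.9% in lungs, 20.5% and 19.9% in kidneys, 9.49% and 8.53% in hearts, and 6.28% and 7.22% in spleens. Counts this small gave the list no direction of its own in any organ. Cdkn1c, which encodes p57 of the same inhibitor family, fell by 1.78 in livers, 1.04 in lungs, 1.03 in hearts and 0.87 in kidneys. Cdkn1b, which encodes p27, passed the test in none of the organs, with changes from -0.21 in the heart to 0.52 in the spleen. Ccnd1, which encodes cyclin D1, fell by 2.16 in kidneys (adjusted p 0.00243 in limma), 1.79 in livers, 1.19 in spleens and 0.92 in lungs, and stood at -0.35 in hearts (adjusted p 0.349). In the spleen the Ccnd1 call was lost with the other placement.

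Genes of lipid, glucose and stress metabolism, a list that also holds Cdkn1a, rose in every organ in part. Without Cdkn1a, 9 of 22 rose and 3 fell in livers, 14 of 23 and 1 in kidneys, 13 of 18 and 0 in lungs, 11 of 20 and 1 in hearts, and 3 of 12 and 0 in spleens. Over all probes 23.8%, 19.9%, 15.9%, 8.53% and 7.22% were called higher in these organs, in the same order. The list's median changes were 0.55, 1.12, 1.28, 0.94 and 0.80. Hmox1, the heme-degrading enzyme, rose by 4.15 in kidneys and 3.95 in hearts. Asns, asparagine synthetase, rose by 4.29 in livers. Pck1, which makes glucose precursors, fell by 2.47 in the liver. For MSC minus CLP in the liver 1 of 22 genes of this list was called (Pck1), 1 of 14 p53 targets (Mdm2) and 1 of 11 cell cycle genes (Ccnd1), against 6.08% of all probes. These calls come from the liver comparison that had 0 calls without most single arrays.

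Many neutrophil markers were also higher after CLP, 7 of 9 tested in livers, 7 of 7 in kidneys, 6 of 10 in lungs and 5 of 8 in hearts. Of all probes 23.8%, 19.9%, 15.9% and 8.53% were called higher in these organs. Their mean level ran from 6.01 to 7.0 in sham livers and from 7.32 to 8.23 in CLP livers, and from 5.59 to 6.13 and 6.49 to 7.23 in kidneys. In lungs it ran from 8.29 to 9.14 and from 9.76 to 10.37, and in hearts from 6.04 to 7.08 and from 7.32 to 8.41. Their part in the Cdkn1a and Saa1 values was not tested.

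Saa1 RNA went from at or near the floor in sham lungs and hearts to high levels in septic ones. Sham lungs read 4.91 in 77S, 4.96 in 76S, 5.08 in 78S, 5.46 in 21S and 6.27 in 22S. CLP lungs read 10.17 in 107C, 11.44 in 34C, 12.24 in 35C, 12.37 in 37C and 13.26 in 24C. The groups were far apart: the change was 6.56 log2 (SE 0.61), at least 57.4-fold against the floor. This rise is given without a test because it chose the probe, in an organ where 8.28% of probes were higher without overlap.

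Sham hearts read 4.75 in 76S, 4.87 in 22S, 5.15 in 77S, 6.50 in 78S and 7.76 in 21S for Saa1. CLP hearts read 9.09 in 35C, 9.92 in 24C, 11.30 in 107C, 11.55 in 34C and 12.60 in 37C. The change of 5.08 (SE 1.11), at least 21.7-fold, also chose the probe. The hearts were more scattered than the lungs in both arms. Lung epithelium markers averaged 5.64 to 7.39 in sham and 5.75 to 8.43 in CLP hearts. Mouse 37C held the highest of both these markers and Saa1 among CLP hearts. Among sham hearts the markers were highest in 78S and Saa1 in 21S, and among MSC hearts in 16M and 61M. Without the hearts of 78S, 107C, 37C and 61M, some of which had stood apart in earlier comparisons, the Saa1 change was 4.55 (SE 0.86).

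Kidneys were the exception, because sham kidneys themselves ran from dim to bright. They read 5.69 in 76S, 6.02 in 77S, 8.99 in 22S, 10.34 in 21S and 13.57 in 78S. CLP kidneys read 11.11 in 35C, 11.27 in 34C, 12.28 in 107C, 12.67 in 37C and 12.95 in 24C. The sham kidney of 78S thus exceeded every septic kidney, and the groups overlapped. CLP minus sham was 3.13 (SE 1.10, 8.78-fold, adjusted p 0.0334 in limma), where 19.9% of kidney probes were called higher. These kidneys came from the mice whose lungs and hearts chose the probe, so the test is not independent of that choice. Leaving out 76S, 77S, 22S, 24C or 37C ended this call, with values from 2.33 to 3.15 and adjusted p from 0.0566 to 0.0936. Without 78S the change was 4.30 (adjusted p 0.00374).

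Hepatocyte RNA was looked for because the liver makes most Saa1. In CLP lungs the mean of 6 hepatocyte markers ran from 5.33 to 5.42, within the 5.08 to 5.92 of sham lungs, while Saa1 was at least 10.17. Apoa1, an apolipoprotein gene that read 15.70 to 15.95 in sham livers, was under the floor in every CLP lung (4.78 to 5.54), as was Cps1, a urea cycle gene (4.20 to 4.81). After CLP the livers themselves had 4 of the 6 markers called lower and 1 higher, against 20.5% and 23.8% of all liver probes. The marker mean ran from 12.11 to 12.44 in sham livers and from 10.96 to 12.01 in CLP livers. In the kidney the same mean was 10.06 in sham mouse 78S, the array with the highest Saa1, and 7.02 to 7.85 in the other sham kidneys. It was 6.56 to 7.22 in CLP kidneys. In that 78S kidney Apoa1 read 13.65 and Cps1 11.27. Among hearts the mean ran from 5.21 to 6.29 in sham and 5.52 to 6.39 in CLP mice. Sham 21S and CLP 37C each held both the highest marker mean and the highest Saa1 of its arm. The heart of MSC mouse 61M stood apart at 7.73 with Saa1 at 14.17, and the lung of MSC mouse 16M at 7.0 with Saa1 at 13.00. The part of hepatocyte RNA in the Saa1 level of lungs, kidneys and hearts was not tested in any arm.

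**Figure D3:**
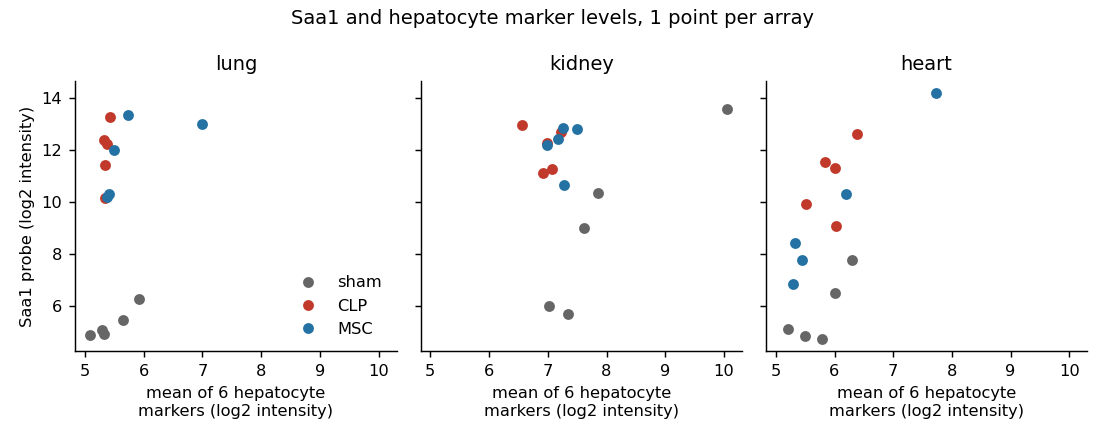
Saa1 probe level (vertical axis, log2 intensity) against the mean of 6 hepatocyte markers (horizontal axis, log2 intensity), 1 point per array, in lung, kidney and heart. Septic lungs are high in Saa1 at marker levels like those of sham lungs, while the sham kidney at 10.06 and the MSC heart at 7.73 are high on both axes.

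In the liver ILMN_2768154 stood at the top of the scanner's scale in every arm, so it gives no fold there. It ran from 15.91 to 16.00 in sham, 15.95 to 16.01 in CLP and 15.77 to 15.99 in MSC livers, where the highest value of all deposited probes was 16.03. The other Saa1 probe, ILMN_2826869, was not at the top: it rose from 11.47 ± 0.68 in sham to 12.60 ± 0.29 in CLP livers (n = 5), by 1.13 (SE 0.27, adjusted p 0.00309 in limma). In kidneys it rose by 1.01 (adjusted p 0.0469). All 5 sham lungs and all 5 sham hearts were under the floor at this probe, so the lung rise was at least 0.93 (adjusted p 0.00213), and the heart difference, at least 0.81, missed the threshold (adjusted p 0.0907). The pair correlated at r = 0.827 over the 60 arrays, which share 15 mice and include the livers where ILMN_2768154 stood at the top.

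**Figure D4:**
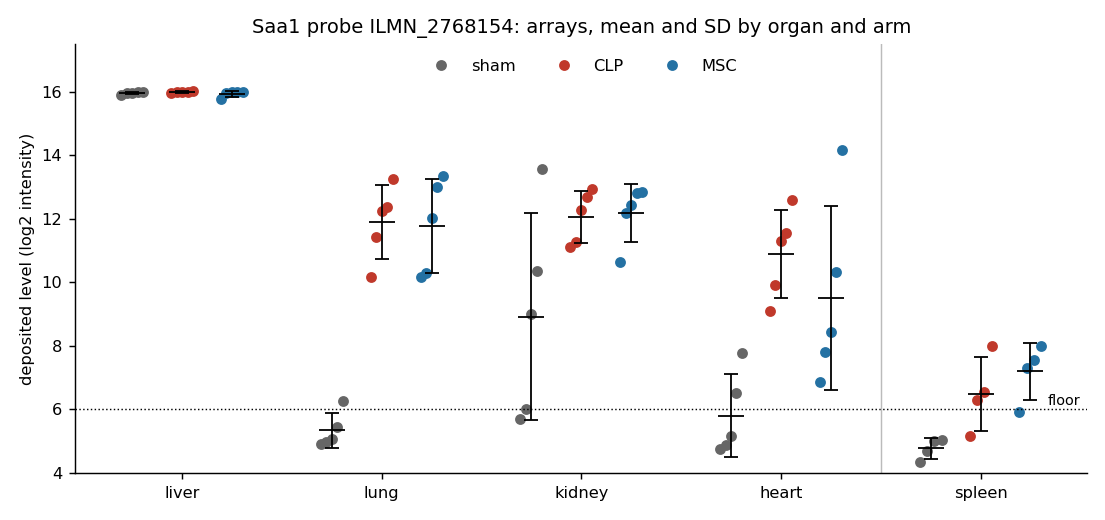
Deposited log2 intensity of the Saa1 probe ILMN_2768154 (vertical axis) in each array, by organ and arm. Points are arrays, bars the mean with its SD, and the dotted line the floor of 6; liver arrays stand near 16 in all arms, and sham kidneys spread from 5.69 to 13.57.

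Changes differed between the probes of the Saa family. Outside the liver those of Saa2 lay near those of the second Saa1 probe and far below those of ILMN_2768154. The gap between Saa1 and Saa2 thus depended on the Saa1 probe. Saa2 rose by 1.01 in the liver (SE 0.22, adjusted p 0.00178 in limma) and by at least 0.41 in the lung (adjusted p 0.0244), where all 5 sham arrays were under the floor. It stood at 0.78 in the kidney (adjusted p 0.123) and at least 0.51 in the heart (adjusted p 0.254). Saa3 rose by 7.93 (heart), 7.56 (lung), 6.19 (kidney) and 5.42 (liver). In the spleen Saa3 rose by 6.13 by the column names (adjusted p 4.44e-05) and stood at 4.84 with the other placement (adjusted p 0.365). Saa3 read 6.69 ± 0.84 in sham and 14.62 ± 0.26 in CLP hearts. Saa4 stood at 12.25 ± 0.30 in sham and 11.44 ± 1.01 in CLP livers, a difference of -0.81 (adjusted p 0.123), and below 6 on average in lung, kidney and heart of sham and CLP mice.

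In the spleen Saa1 stayed low. Sham spleens read 5.02 in E, 4.70 in F, 4.33 in E2 and 5.03 in F2, and CLP spleens 6.29 in A, 5.15 in B, 6.54 in A2 and 7.99 in B2. By the column names the CLP spleens lay above the sham spleens, as 11.8% of spleen probes did, yet the B array was still under the floor. The difference was 1.72 (SE 0.54, adjusted p 0.0529 in limma), and at least 1.41-fold against the floor, under which all 4 sham spleens lay. With the other placement it was 0.98 (adjusted p 0.556). MSC spleens read 7.56 in C, 5.92 in D, 7.98 in C2 and 7.31 in D2, higher than sham by at least 1.19 (2.29-fold) with the dim sham spleens at the floor. The measured difference was 2.42 (adjusted p 0.0213 in limma, where 3.85% of probes were called higher). It was 0.94 with the other placement (adjusted p 0.995) and 2.24 without D2 and E2 (adjusted p 0.138).

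MSC mice did not differ detectably from CLP mice in Saa1. The CLP lungs and hearts of this comparison helped to choose the probe, so those tests are not independent of that choice. MSC lungs read 10.18 in 100M, 10.30 in 61M, 12.01 in 101M, 13.00 in 16M and 13.35 in 44M. The lung difference was -0.13 (95% interval -1.43 to 1.16, adjusted p 0.911 in limma; exact permutation p = 0.833). MSC kidneys read 10.64 in 100M, 12.17 in 61M, 12.42 in 101M, 12.81 in 44M and 12.84 in 16M. The kidney difference was 0.12 (-2.22 to 2.45, adjusted p 0.955; exact permutation p = 0.865). These intervals still allow differences of more than 2-fold either way. MSC hearts read 6.87 in 100M, 7.79 in 101M, 8.44 in 44M, 10.31 in 16M and 14.17 in 61M. The heart difference was -1.37 (-3.73 to 0.98, adjusted p 0.527; exact permutation p = 0.365) and -2.54 without 61M (adjusted p 0.177). The spleen difference was 0.70 (-0.48 to 1.88, adjusted p 1; exact permutation p = 0.4), and -0.04 with the other placement (adjusted p 0.989).

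Mouse 100M had the lowest Saa1 of the MSC arm in 3 of 3 organs. Over lung, kidney and heart of each mouse Saa1 averaged 6.69 ± 1.45 in sham, 11.61 ± 0.68 in CLP and 11.15 ± 1.22 in MSC mice (n = 5 each). MSC lungs stood at least 52.4-fold above sham lungs. This value is given without a test, and the heart test below is not independent of the choice of the probe, because the sham lungs and hearts helped to choose it. The MSC minus sham difference was 3.25 in the kidney (adjusted p 0.0863), or 4.41 without 78S (adjusted p 0.00736), and 3.71 in the heart (adjusted p 0.0973), or 2.55 without 61M (adjusted p 0.143).

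The probes most like Saa1 over the 60 arrays, besides its own second probe and an unnamed probe (ILMN_2728473, r = 0.908), were those of Orm1 (r = 0.906), Orm2 (r = 0.811) and Serpina3n (r = 0.799). Orm1 and Orm2 encode alpha-1-acid glycoproteins and Serpina3n a protease inhibitor, all acute phase proteins of the liver. Orm1 rose from 6.54 ± 0.14 to 11.07 ± 1.48 in the lung, by 4.53 (adjusted p 0.00012 in limma), and by 4.31 in the heart. In the kidney Orm1 stood at 1.30 (adjusted p 0.251), with sham kidneys at 9.06 ± 2.28. Serpina3n rose by 3.67 in hearts, 3.21 in kidneys, 2.64 in lungs and 0.91 in livers. The Cdkn1a and Saa1 probes correlated with each other at r = 0.47 over these arrays. In the livers among them the Saa1 probe stood at the top of the scale, so its liver values hardly vary. Each correlation with Saa1 over the 60 arrays carries this limit. Among these arrays are a sham kidney, an MSC heart and an MSC lung whose hepatocyte marker means stood apart, at 10.06, 7.73 and 7.0. Saa1 read 13.57, 14.17 and 13.0 in these organs, in the same order. Their part in the likeness of Saa1 to Orm1, Orm2 and Serpina3n was not tested.

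Acute phase genes, a list of 37 besides Saa1, rose in part in every organ, with the smallest median change in the liver. Without Saa1, 19 of 28 tested genes rose in lungs (median change 1.26), 17 of 29 in kidneys (1.15), 19 of 28 in hearts (2.23) and 11 of 15 in spleens (1.22), and 0 fell in these 4 organs. In the liver 15 of 33 rose and 2 fell (median 0.28). Over all probes 15.9% were called higher in lungs, 19.9% in kidneys, 8.53% in hearts, 7.22% in spleens and 23.8% in livers. Medians over all probes lay between -0.03 and 0.06. Lcn2, an iron-siderophore binding protein, rose by 6.42 in kidneys, 6.22 in hearts, 2.59 in lungs and 1.41 in livers. Hp, haptoglobin, rose by 4.49 in hearts, 2.72 in kidneys and, by the column names, 2.07 in spleens. In the liver Hp read 15.91 ± 0.15 in sham and 16.00 ± 0.04 in CLP mice and Orm1 15.77 ± 0.14 and 15.94 ± 0.03, near the same top of the scale as Saa1.

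**Figure D5:**
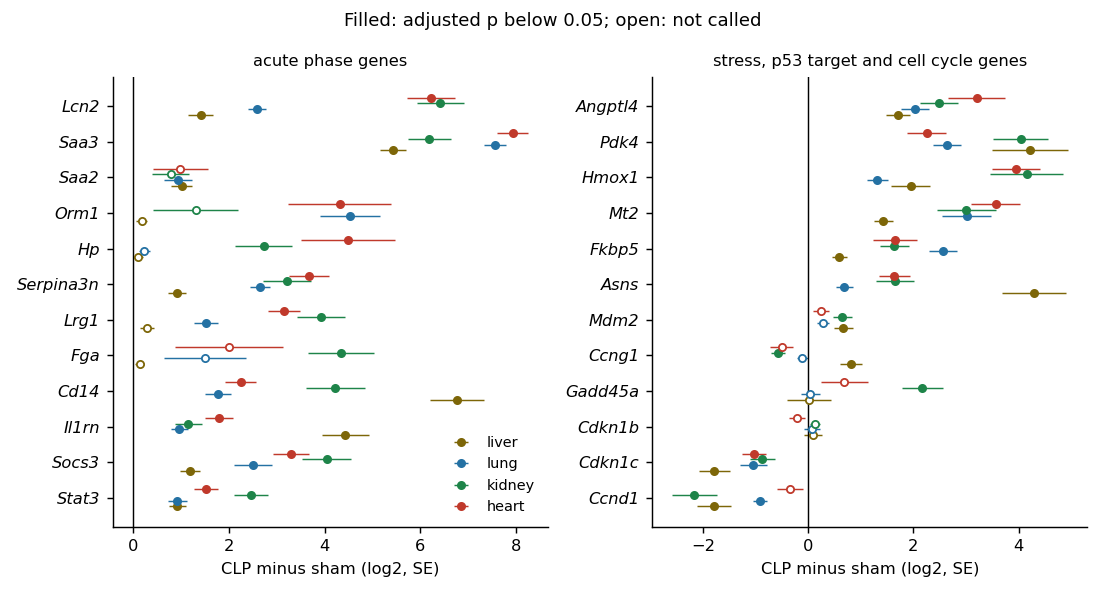
CLP minus sham (log2, horizontal axis) with its SE for 12 acute phase genes on the left and 12 stress, p53 target and cell cycle genes on the right, by organ, picked from the lists after their values were seen. Some points of Saa2, Fga, Il1rn and Mt2 stand against sham arms under the floor. Filled points passed the test and open points did not; Saa3 rose in all 4 organs shown, and Cdkn1c fell in all 4 while Cdkn1b passed in none.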

How the data were processed

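RNA of 72 mouse organ samples was measured on Illumina arrays, per the labels. The authors deposited log2 values in 2 tables, without stated software. The table named non-normalized holds log2 values between 0.01 and 16.03. Sorted values coincide within the 12 spleen and within the 60 other arrays, so quantile normalization in each set is inferred from the values. The other table holds the same log2 values less a constant per probe and set. Of 45281 probes 26 had unusable lines and 45255 were kept. In 22751 rows (50.3%) the columns are displaced by 12 against the header. For liver, lung, kidney and heart all rows were used, with samples from the other table's sample columns; for the spleen only the 22504 rows in header order were used. This departs from the plan for raw signals, since the file is already normalized. Organs follow title, source name and description, from which the tissue characteristic differs in most samples. The spleen column of the CLP array B was matched to its group only.

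limma 3.58.1 in R 4.3.3 (lmFit, eBayes) was run per organ on all 3 arms at once, adjusting by Benjamini-Hochberg over probes above 6 log2 in at least 5 arrays (4 in the spleen), and was tested on simulated data. Permutation tests were exact (SciPy 1.17.1). The labels give the 4 organs the same mouse numbers, so mice pair organs, and the consensus correlation within a mouse was 0.201. Alternatives included another floor, no filter, array weights, 2 arms alone, the other table and each array left out. Folds against arms averaging under the floor count each dim array at 6. The platform annotation names 1 gene for 34873 probes, several for 18 and none for 10364. For a gene with several probes, 1 was used and the others compared for direction. No depth exists for arrays, whose number limits the precision.

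The members and gene lists were chosen with earlier results of these data known, and the p53 target and cell cycle lists were added after the values were seen. Named genes are the members, other probes of their genes, the 5 most correlated probes of each, and genes of the lists.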

Additional observations from a re-analysis of the deposited data

Results flagged for a closer look

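Among 30 groups of arrays checked for a stray value, 2 held an array far from the rest, where chance alone gives about 1 in 20. The CLP liver of mouse 107C read 9.79 for Cdkn1a, and the other 4 CLP livers read 11.49 to 11.76. The MSC liver of mouse 61M read 15.77 for Saa1, and the other 4 read 15.95 to 15.99, all near the top of the scale.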

How the results depend on the processing

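Under the alternatives other than leaving out an array, 308 values of the main comparisons kept their direction and side of the threshold. In the spleen, the other table's placement, tried both with that table's values and, chosen after seeing the data, on the same rows and values, gave 2.27 for Cdkn1a CLP minus sham, 1.09 for MSC minus sham, and for Saa1 0.94 for MSC minus sham and -0.04, reversed, for MSC minus CLP. Without the arrays D2 and E2 these spleen values were 3.13, 2.64 and 2.24, and none passed. On the same 11048 probes that placement called 0 for CLP minus sham (1491 at an unadjusted p below 0.05) against 1492 by the column names, and 0 for MSC minus sham against 832. Saa1 CLP minus sham in the spleen passed at a floor of 7 (1.72, adjusted p 0.047 in limma), with array weights (2.01) and with the label set as a block (1.72). Its bound against a floor of 7 was -0.51. At that floor the CLP minus sham bound was 4.26 log2 for Cdkn1a in the liver. For Saa1 it was 4.9 in the lung and 3.74 in the heart. In the kidney Saa1 CLP minus sham kept 3.13 but missed the threshold with no filter, with 2 arms alone and with all rows read by the header. Array weights called Cdkn1a MSC minus CLP in the kidney (-1.84) and over 4 organs (-0.99), and Saa1 MSC minus sham in the kidney (3.77) and heart (3.32). The sham hearts helped to choose the Saa1 probe, so its heart call is not independent of that choice. With the mouse as a replicate block, Cdkn1a MSC minus CLP over 4 organs was -0.75 (adjusted p 0.0317 in limma) and no other call changed. That fit took 1 correlation within a mouse for all probes, which can give too small a p-value. The spleen numbers as a block changed none. Without the liver, Saa1 CLP minus sham over organs was 4.93 against 3.70.

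Leaving out each array in turn gave, for the spleen, 1.22 to 2.17 for Saa1 CLP minus sham, -0.81 to 0.16 for Cdkn1a MSC minus CLP, 2.43 to 3.22 for Cdkn1a MSC minus sham and 2.16 to 2.85 for Saa1 MSC minus sham. The MSC minus sham calls of both genes in the spleen were lost without any of s1, s2, s3, s4, MSC5 or MSC8 by the column names. The Saa1 CLP minus sham difference there passed without B, MSC5 or MSC7. Saa1 MSC minus CLP ran from -0.56 to 0.27 in the lung and -0.12 to 0.50 in the kidney. Saa1 in the kidney ran from 2.33 to 4.30 for CLP minus sham and 2.44 to 4.41 for MSC minus sham, and in the heart from 2.55 to 4.37 for MSC minus sham, which passed without 100M. The sham hearts helped to choose this probe, and 3 of 5 were under the floor, so that heart call is not independent of the choice. Cdkn1a MSC minus CLP ran from -1.99 to -0.90 in the kidney and -1.13 to -0.54 over 4 organs. The cause of these changes was not tested.

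Numbers of called probes moved too. Liver MSC minus CLP calls were 1095, 0 with 2 arms alone or no filter and 4772 with array weights; kidney calls were 1 and 5024 with weights, heart calls 2 and 1496, lung calls 0 and 2430. Over 4 organs they were 1658, 3735 with the mouse block, 1 with no filter and 5666 with weights. Heart CLP minus sham calls were 3189, 2031 with 2 arms and 6263 with weights, and spleen calls 1492, 950 with no filter and 3307 with weights. With weights MSC minus sham calls went from 832 to 2207 in the spleen, 3852 to 6183 in the liver, 1688 to 3100 in the lung, 1203 to 3382 in the kidney and 515 to 2877 in the heart. With 1 array left out, MSC minus CLP calls ran from 0 to 5437 in the liver, 0 to 6065 in the kidney, 0 to 4249 in the lung, 0 to 1355 in the heart and 0 to 5905 over 4 organs, each highest without 107C. CLP minus sham calls ran from 536 to 3027 in the spleen (highest without B) and 2098 to 5630 in the heart (highest without 78S).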
